A study of Mus musculus with 6 samples.

Results

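The mitochondrial ribosomal protein genes were followed in fetal liver RNA of mice with and without the microRNA locus miR-144/451. They were taken as every gene of the deposited count table whose symbol is exactly Mrpl or Mrps, a number and at most 1 letter, which gave 76 of 34542 genes. All 76 also had exon and intron counts. By present knowledge of the mammalian ribosome, 49 of them encode proteins of the large subunit and 26 proteins of the small subunit. Mrps30 and Mrps18a carry small subunit symbols but encode large subunit proteins. Mrps36 is now known as a component of the 2-oxoglutarate dehydrogenase complex, not of the ribosome, and was kept as a member by its symbol.

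The mitochondrial ribosome translates the few messages of the mitochondrial genome, all of which encode membrane subunits of the respiratory chain and ATP synthase. Its RNA comes from that genome, whereas all of its proteins are encoded in the nucleus, made in the cytosol and imported. Some have counterparts in bacterial ribosomes and others exist only in mitochondria. Red cell precursors in the fetal liver depend on mitochondria for haem and iron-sulfur cluster synthesis and clear these organelles as they mature into red cells.

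The KO libraries came from miR-144/451-/- embryos and the WT libraries from WT embryos, all of the strain C57BL/6J, with 3 libraries in each group. Polyadenylated RNA of fetal liver cells was sequenced to compare messages with and without the locus. The miRNAs of the locus, miR-144 and miR-451, are abundant in maturing red cells and lower messages that carry matching sites. The labels give neither the embryos' age nor whether a library came from 1 embryo or a pool, and a p-value here therefore speaks of the spread between these libraries alone.

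Gene counts totalled 40392139 to 44700229 in the KO libraries and 24659978 to 36082084 in the WT libraries, and introns took 16.9% to 23.4% of exon plus intron counts. The Mir451 row held 2 to 4 counts in KO and 323 to 446 in WT, which fits the labels. All 12 erythroid markers were detected. With edgeR 0 of them passed the test, beside 1.83% higher and 1.45% lower over all tested genes. Before adjustment, 7 of the 12 had an edgeR p under 0.05 and were lower, where 8.78% of all genes were. DESeq2 called 7 of the 12 lower, beside 4.32% of all genes. The median log2 change of the 12 erythroid markers was -0.50. Hepatocyte markers varied within both groups, with a mean log2 level of 7.49, 8.19 and 9.27 CPM in KO replicates 4, 5 and 6 and of 7.69, 9.64 and 6.92 CPM in WT replicates 1, 2 and 3. CPM are counts scaled to library size, after TMM adjustment (trimmed mean of M values) of that size. In bulk RNA, fewer cells of a type and less RNA per cell cannot be told apart.

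The sequences below show the miRNAs missing from KO and the matches to them in the members that the results turn on. Capitals in the miRNAs mark the seed, bases 2 to 8 from the 5′ end, which pairs with target messages (RefSeq, build GRCm38.p6, chromosome 11, plus strand).
miR-451a, chr11:78073186-78073207: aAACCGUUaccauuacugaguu
miR-144-3p, chr11:78073047-78073066: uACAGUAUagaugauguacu
The seeds have different letters, so the miRNAs form separate seed groups. Capitals in the windows below mark the complement of a seed in the longest annotated 3′ untranslated region of the gene (GENCODE models on GRCm38).
Mrps27, miR-451a match, chr13:99415133-99415159, plus strand: actaagtgacaAACGGTTgggctgaag
Mrpl50, miR-144-3p match, chr4:49513272-49513298, minus strand: gaaacacagaaATACTGTaggtgtgga
Mrpl45, miR-144-3p match, chr11:97329078-97329104, plus strand: tttggaataaaATACTGTcaaagagtt
Mrpl17, miR-144-3p match, chr7:105805408-105805434, minus strand: gaagaccacccATACTGTatattagat
The miR-451a word occurred in 1 of 76 members, Mrps27, which is 1.32% of members against 1.88% of 20387 genes with such a region. The miR-144-3p word occurred in 9 members, 11.8% against 12.5% of those genes. The members' 3′ regions had a median of 479 bases, against 1112 bases over all genes. A match is a description of letters and was not tested as a binding site.

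Mrps27 was the member that rose in KO, and 0 members fell. Over all 15105 genes tested by edgeR's quasi-likelihood test with Benjamini-Hochberg adjustment at 0.05, 1.83% were higher and 1.45% lower in KO. Of the 76 members 75 were tested, and 74 did not pass in either direction. Before adjustment, 6 members had a p under 0.05 and were higher, and 3 such members were lower, where 7.77% and 8.78% of all tested genes were. DESeq2 called 3 members higher (Mrps27, Mrpl50 and Mrpl45) and 0 lower, where it called 4.34% and 4.32% of all genes.

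Mrps27 encodes a small subunit protein found only in mitochondria, a pentatricopeptide repeat protein that in human cells binds mitochondrial ribosomal RNA. It had 43.4, 39.6 and 38.7 CPM in KO replicates 4, 5 and 6, against 25.1, 25.2 and 24.6 CPM in WT replicates 1, 2 and 3. Every KO library lay above every WT library, and the WT libraries were close to each other. The means were 40.5 ± 2.50 CPM in KO and 25 ± 0.346 CPM in WT (SD, n = 3 each), a 1.62-fold difference. On the log2 scale Mrps27 was 0.70 higher with an SE of 0.08, and its edgeR adjusted p was 0.0171. Leaving out 1 library at a time kept the log2 change between 0.64 and 0.72. The call was lost in 5 of 6 such fits, where the edgeR adjusted p ran from 0.0516 to 0.0958. In those 5 fits the unadjusted edgeR p of Mrps27 was 0.00051 to 0.000999. Calls fell over all genes too, with 5 to 54 genes called higher there, against 276 with all 6 libraries. The call of Mrps27 was kept without WT replicate 2, with an edgeR adjusted p of 0.0106, where 483 genes were called higher. The gene lies at chr13:99344786-99415562 on the plus strand (GRCm38) and shares exon positions with 6430562O15Rik on the opposite strand. The strand setting of the counting is not given in the sources used here, so a read there could belong to either gene.

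**Figure D1:**
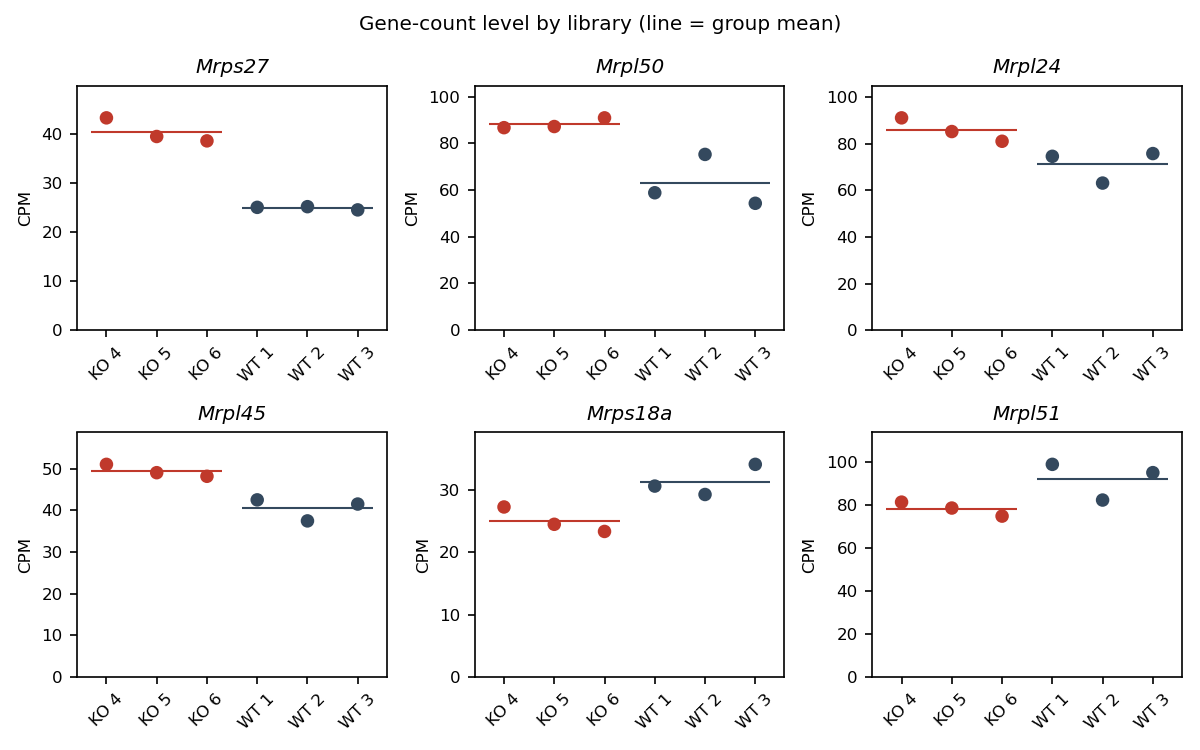
Gene-count levels in CPM (y axis, from 0) in each KO and WT library (x axis) for 6 members, with lines at the group means. Mrps27, Mrpl50, Mrpl24 and Mrpl45 have every KO point above every WT point, and Mrps18a and Mrpl51 have every KO point below, but only Mrps27 passed the test with edgeR.

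Changes of the members were small. Their median log2 change was 0.04 with an interquartile range of -0.04 to 0.13, beside a median of -0.03 over all tested genes. A change within 0.2 of 0 on the log2 scale was found for 62 of 75 members, 82.7%, where 57.1% of all tested genes lay in that range. Their median SE was 0.10, against 0.16 over all genes. The log2 change was positive in 47 of 75 members, where 44.8% of all tested genes were positive. Neither the sign of the members' median nor its place above that of all genes held in every fit that left out 1 library. Without WT replicate 2 it was -0.0099, below 0.0074 for all genes, and 37 members were positive. It was 0.0033 without KO replicate 4, 0.04 without KO replicate 5, and 0.06, 0.08 and 0.08 without WT replicate 1, WT replicate 3 and KO replicate 6. In 11 members all KO libraries lay above all WT libraries and in 4 all lay below, of 75 tested, beside 11.8% and 10.9% of all genes. Summed over the members, the level was 3355, 3149 and 2975 CPM in KO and 3167, 2814 and 3225 CPM in WT. These groups overlapped, with means of 3160 ± 190.1 CPM in KO and 3068 ± 223 CPM in WT (SD, n = 3 each).

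**Figure D2:**
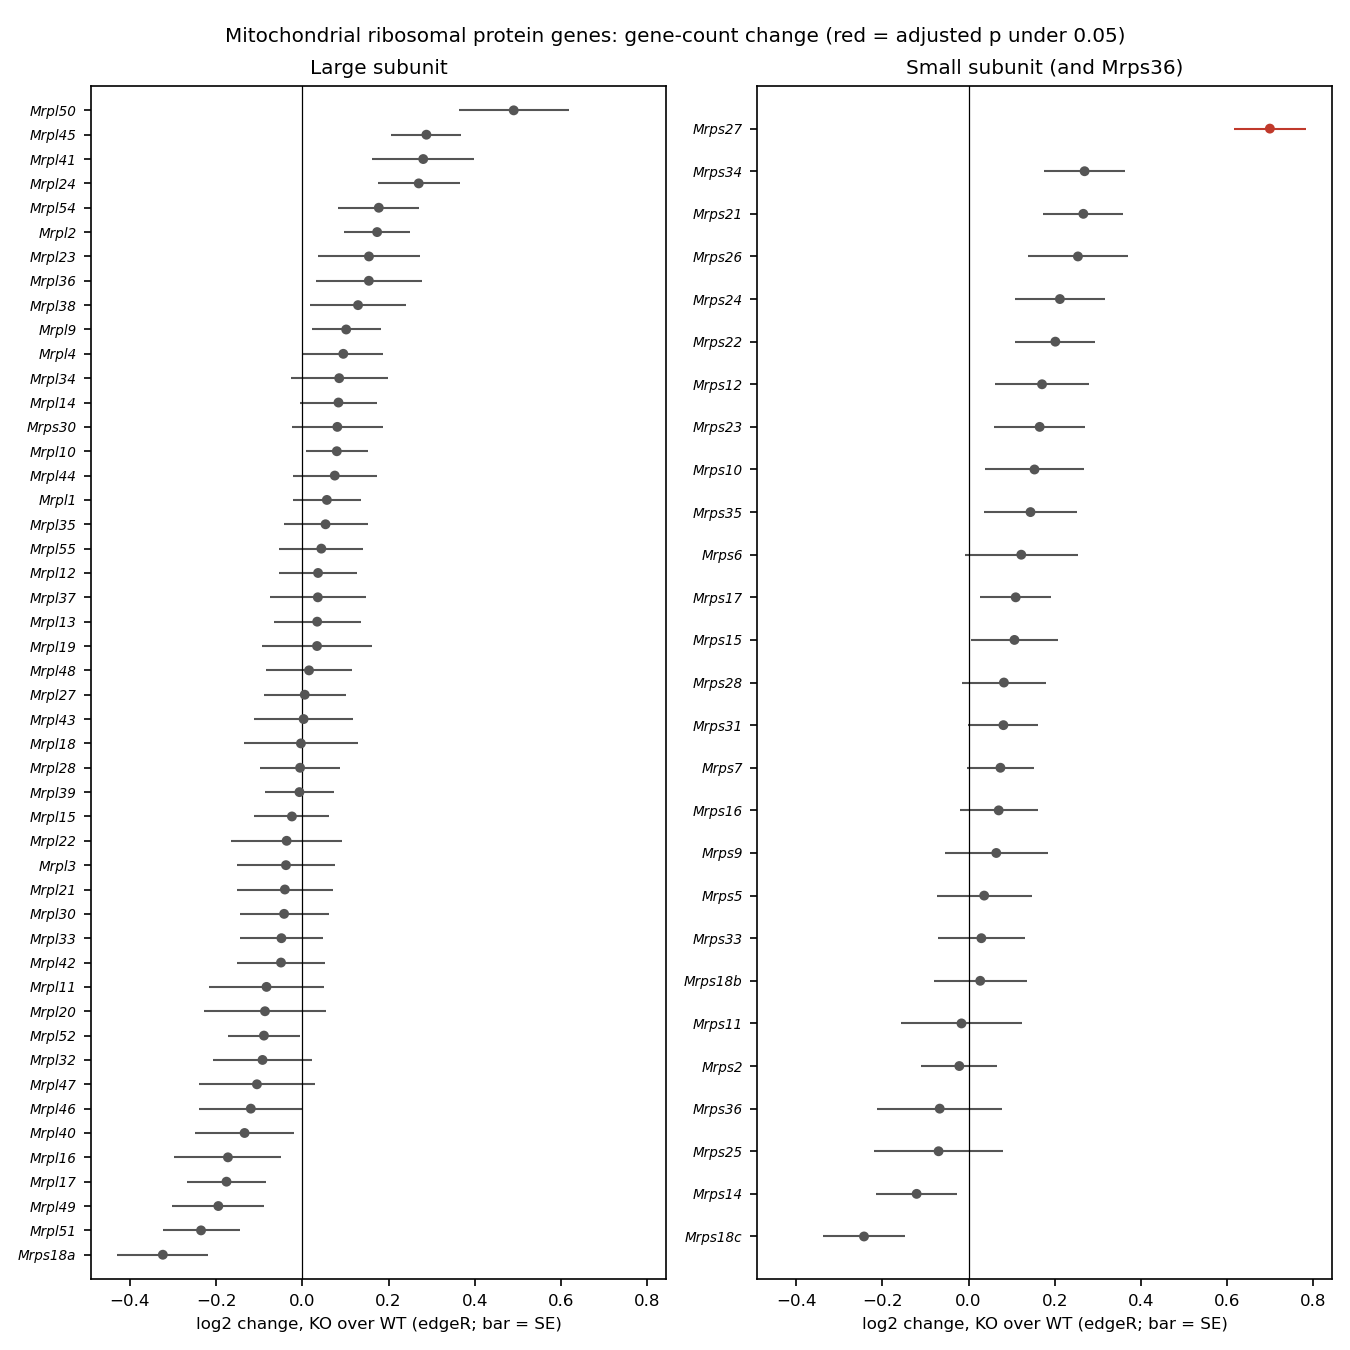
Log2 change of gene counts, KO over WT (x axis), for each tested member (y axis), with large subunit members on the left and small subunit members and Mrps36 on the right. Points are edgeR estimates and bars are their SE; Mrps27 at 0.70, in red, is the member with an adjusted p under 0.05.

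Large subunit members came out nearly level between the groups. Of 48 tested, 0 passed in either direction with edgeR, beside 1.83% higher and 1.45% lower over all tested genes. An unadjusted p under 0.05 was found for 3 higher and 2 lower members, beside 7.77% and 8.78% of all genes. DESeq2 called 2 members higher and 0 lower, beside 4.34% and 4.32% of all genes. The median log2 change of large subunit members was 0.01, and 26 of 48 were positive.
Mrpl50, a mitochondria-specific protein of the large subunit, had 86.7, 87.2 and 90.9 CPM in KO, against 58.8, 75.2 and 54.3 CPM in WT. The KO libraries were close together and all above WT, whose libraries were spread more widely. The log2 change of Mrpl50 was 0.49 with an SE of 0.13 and an edgeR adjusted p of 0.112, and its DESeq2 adjusted p was 0.0160. Without WT replicate 2, the highest of its WT libraries, its log2 change was 0.64 and its edgeR adjusted p 0.00762. In the other 5 fits that left out a library its log2 change was 0.40 to 0.49 and its edgeR adjusted p 0.282 to 0.356, with the smallest change without WT replicate 3.

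Mrpl45 lies near the exit of the ribosome's peptide tunnel and takes part in holding the mitochondrial ribosome at the inner membrane. It had 51.1, 49.1 and 48.2 CPM in KO, against 42.5, 37.5 and 41.5 CPM in WT, with no overlap. Its log2 change was 0.29 with an SE of 0.08 and an edgeR adjusted p of 0.135, while its DESeq2 adjusted p was 0.0314. Mrpl24, a protein of the tunnel exit with a bacterial counterpart, had 91.0, 85.1 and 81.0 CPM in KO, against 74.5, 63.1 and 75.7 CPM in WT. All KO libraries of Mrpl24 were above all WT libraries, and the edgeR adjusted p of its 0.27 log2 change was 0.224. Its exons overlap those of Rrnad1 on the opposite strand.
Mrpl41, which has no bacterial counterpart, had 38.9, 36.9 and 31.5 CPM in KO, against 30.5, 26.4 and 31.5 CPM in WT. Its KO libraries lay above WT by a very narrow margin, with a log2 change of 0.28 and an edgeR adjusted p of 0.308.

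At the other end of the large subunit, Mrps18a had 27.3, 24.5 and 23.3 CPM in KO, against 30.6, 29.3 and 34.1 CPM in WT. It is 1 of 3 mammalian proteins related to a single bacterial small subunit protein. All KO libraries lay below all WT libraries, but with a log2 change of -0.32 and an SE of 0.11 the edgeR adjusted p was 0.191. Its relatives belong to the small subunit. Mrps18c had 41.3, 42.9 and 40.4 CPM in KO, against 52.8, 43.6 and 51.1 CPM in WT, a log2 change of -0.24 with an edgeR adjusted p of 0.273. Mrps18b averaged 39.3 ± 3.15 CPM in KO and 38.6 ± 4.01 CPM in WT (SD, n = 3 each), and its groups overlapped. Differences between these 3 genes were not tested.
Mrpl51 had 81.3, 78.6 and 74.8 CPM in KO, against 98.9, 82.3 and 95.1 CPM in WT, a log2 change of -0.24 with an edgeR adjusted p of 0.256. Its KO libraries lay below WT, with WT replicate 2 nearest to them. Mrpl17, Mrpl49 and Mrpl16 had log2 changes of -0.18, -0.20 and -0.17, and edgeR adjusted p-values of 0.416, 0.447 and 0.603. Mrpl17 had no overlap between the groups, whereas the groups overlapped for Mrpl49 and Mrpl16.

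Most small subunit members had positive log2 changes. Of 26 tested, 1 rose (Mrps27) and 0 fell with edgeR, beside 1.83% and 1.45% of all tested genes. An unadjusted p under 0.05 was found for 3 higher members and 1 lower member, beside 7.77% and 8.78% of all genes. DESeq2 called 1 member higher and 0 lower, beside 4.34% and 4.32% of all genes. The median log2 change of small subunit members was 0.09, and 21 of 26 were positive. The difference from the large subunit was not tested.
The members were also split by an ancestry assigned to each gene from general knowledge, without a sequence comparison. That assignment can be disputed for Mrps28, Mrpl47 and Mrpl55, which were counted as mitochondria-specific. The 16 small subunit members assigned a bacterial counterpart had a median of 0.07 and the 10 assigned as mitochondria-specific a median of 0.15. In the large subunit these medians were 0.01 for 29 members and 0.02 for 19 members. Mrps34, a mitochondria-specific protein, had 31.0, 30.2 and 28.7 CPM in KO, against 26.4, 22.8 and 25.3 CPM in WT. The groups did not overlap, and the edgeR adjusted p of its 0.27 log2 change was 0.224. Its exons share positions with Mapk8ip3 and Nme3. Mrps21, a bacterial-type protein, had 52.6, 53.0 and 49.2 CPM in KO, against 47.1, 39 and 42.6 CPM in WT, a log2 change of 0.27 with an edgeR adjusted p of 0.220. Mrps22, Mrps24 and Mrps31 were likewise higher in every KO library than in every WT library, with log2 changes of 0.20, 0.21 and 0.08.

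The balance of the subunits was compared within each library, where scaling between libraries cancels. The summed level of the small subunit members divided by that of the large subunit members was 0.441, 0.437 and 0.443 in KO, against 0.414, 0.421 and 0.418 in WT. The groups did not overlap. Without Mrps27 the ratio was 0.422, 0.419 and 0.424 in KO, against 0.403, 0.408 and 0.407 in WT, again without overlap. With genes assigned by symbol alone it was 0.499, 0.494 and 0.498 in KO and 0.473, 0.481 and 0.482 in WT. The ratio is given as a description, since the members were chosen with earlier results of these data known. Sums of counts weigh long and abundant transcripts more and say nothing of the number of subunits.

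**Figure D3:**
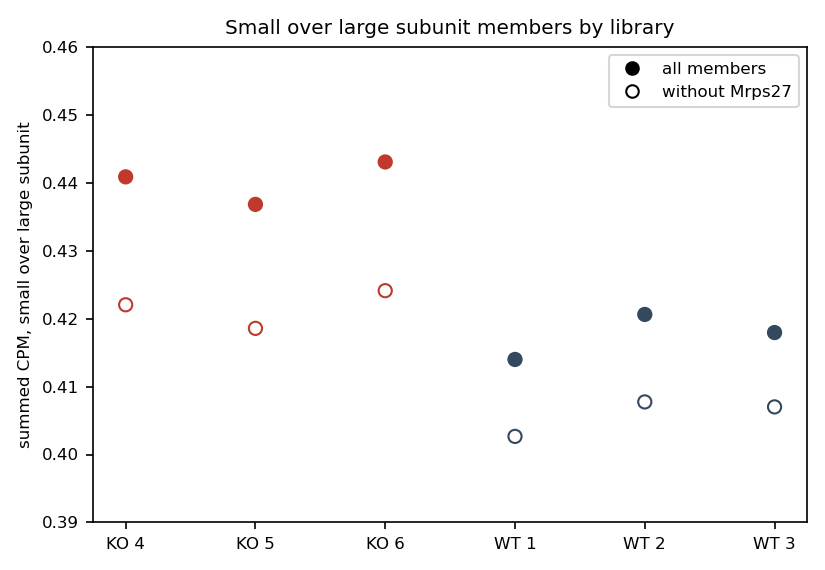
Summed CPM of small subunit members over summed CPM of large subunit members (y axis, not starting at 0) in each KO and WT library (x axis). Filled points take all members, at 0.437 to 0.443 in KO and 0.414 to 0.421 in WT, and open points leave out Mrps27.

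Members moved together between libraries of the same genotype. Each member's log2 level was set against its own mean over the 6 libraries. The median deviation of the 75 members was 0.12, 0.02 and -0.05 in KO replicates 4, 5 and 6, and 0.02, -0.15 and 0.06 in WT replicates 1, 2 and 3. Above their own mean were 67, 44 and 16 members in those KO libraries and 45, 5 and 52 in those WT libraries. KO replicate 6 held the lowest level of 18 members and WT replicate 2 that of 48. These were the libraries with the highest hepatocyte marker level in their group, 9.27 and 9.64 on the log2 scale, and the 20 hepatocyte markers summed to 48801 CPM in KO replicate 6 and 60000 CPM in WT replicate 2. In the other libraries they summed to 13757 and 21544 CPM in KO and to 15933 and 9383 CPM in WT. Related families were also lowest in WT replicate 2. Cytosolic ribosomal protein genes had a mean log2 level of 8.48 CPM there, against 8.60 to 8.78 in the other libraries. For nuclear genes of respiratory chain subunits it was 6.03 CPM, against 6.10 to 6.21.

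With each library's hepatocyte marker level as covariate, edgeR called 10 members higher and 2 lower at the same threshold, where it called 8.42% and 8.49% of all genes. The 10 were Mrps27, Mrpl50, Mrpl45, Mrpl41, Mrpl24, Mrps34, Mrps21, Mrps26, Mrps22 and Mrps23, and the 2 were Mrps18a and Mrpl51. In that fit the log2 change was 0.70 for Mrps27, 0.47 for Mrpl50 and -0.30 for Mrps18a. Without KO replicate 6 and WT replicate 2 together, 2 members were called higher (Mrps27 and Mrpl50) and 0 lower, where 3.85% and 5.56% of all genes were called. No hepatocyte or erythroid marker was at 0 in any library. The 12 erythroid markers summed to 19017, 21362 and 18041 CPM in KO, against 31769, 22387 and 27961 CPM in WT, with no overlap, and their part in the members' values was not tested.

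**Figure D4:**
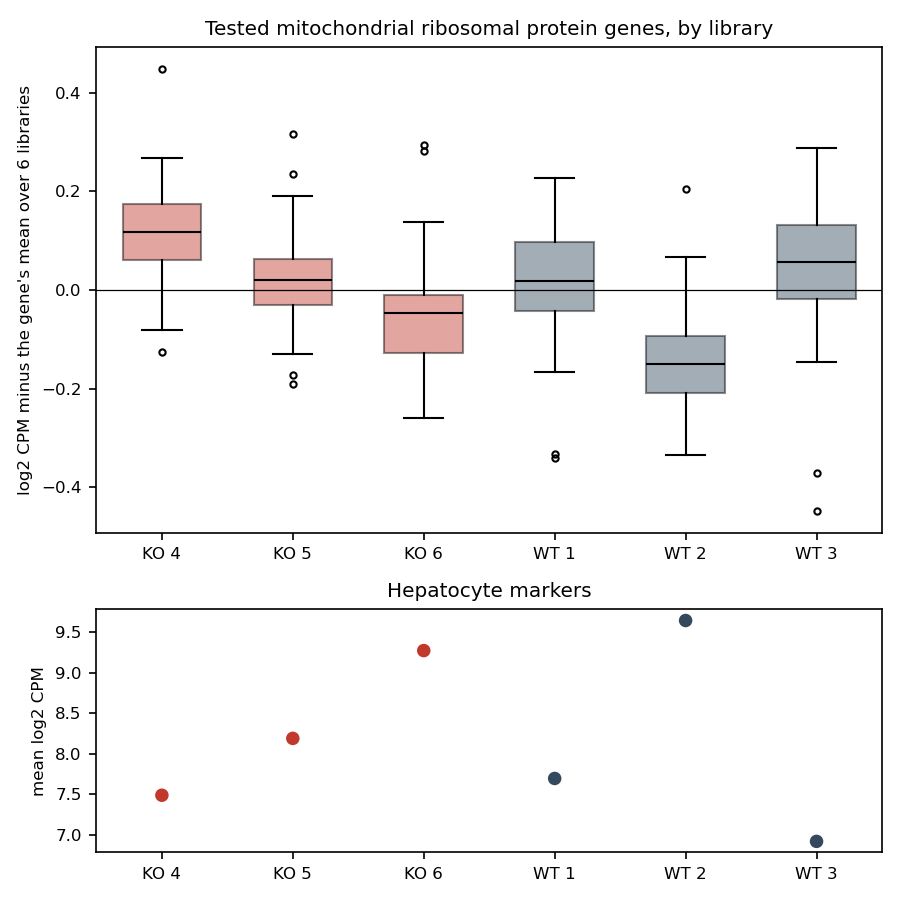
Top, log2 CPM of each of 75 tested members minus its mean over 6 libraries (y axis), by KO and WT library (x axis); boxes span the quartiles with the median, whiskers reach to 1.5 times the box length, and circles are members beyond them. Bottom, mean log2 CPM of 20 hepatocyte markers in the same libraries; WT replicate 2 has the lowest members' median, -0.15, and the highest marker level, 9.64.

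Per kilobase of the principal transcript (GENCODE), members' mean levels spanned 4.72 to 106 CPM in KO and 4.96 to 95.0 CPM in WT, with a median of 30.9 CPM in KO and 29.3 CPM in WT. Of the 75 tested members, 47 lay within 2-fold of the WT median. The highest in both groups were short transcripts of 0.418 to 0.764 kilobases. Mrps21 had 106 ± 4.30 CPM per kilobase in KO and 87.9 ± 8.25 in WT, Mrpl33 had 89.8 ± 5.80 in KO and 92.9 ± 7.79 in WT, and Mrpl20 had 89.5 ± 7.99 in KO and 95.0 ± 16.1 in WT (SD, n = 3 each). Mrpl52 had 85.2 ± 5.98 in KO and 90.6 ± 1.13 in WT. Mrpl33, Mrpl20 and Mrpl52 differed from each other by less than the larger SD of each pair in both groups. The lowest in WT were Mrps25, at 4.72 ± 0.712 in KO and 4.96 ± 0.621 in WT, and Mrps35, at 5.67 ± 0.448 in KO and 5.14 ± 0.376 in WT. Next came Mrpl17, at 4.82 ± 0.271 in KO and 5.44 ± 0.390 in WT, and Mrps26, at 7.65 ± 0.745 in KO and 6.42 ± 0.626 in WT. These transcripts have long annotated models of 4.16 to 7.30 kilobases, and a shorter form in these cells would have a higher level per kilobase.

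Mrpl53, a large subunit protein, was the member that could not be tested. It was listed at 0 gene counts in all 6 libraries, while its introns held 73, 39 and 41 counts in KO and 35, 28 and 31 counts in WT. In the annotation its exons share positions with Gm42688 on the same strand and Ccdc142os on the opposite strand, and the 0 was not read as an absence of the message. In all, 32 members share exon positions with another annotated gene, 8 of them with a gene on the same strand. Mrpl46 and Mrps11 overlap each other on opposite strands.

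Intron counts, which stand largely for unspliced RNA, gave a second readout for 72 tested members. With edgeR, 0 members passed in either direction, where 0.237% of 11803 tested genes were higher and 0.483% lower. Before adjustment, a p under 0.05 was found for 4 that were higher (Mrpl24, Mrps21, Mrpl15 and Mrpl37) and 0 lower, beside 5.39% and 5.45% of all genes, and DESeq2 called 1 higher (Mrpl24) and 0 lower, where it called 1.04% and 1.84% of all genes. In 11 members every KO library lay above every WT library and in 1 (Mrpl49) every KO library lay below, where 9.92% and 7.57% of all genes did. The log2 change was positive in 55 of 72 members, where 53% of all genes were positive, and the median was 0.15, beside 0.02 over all genes. The closest families were alike in this. Cytosolic ribosomal protein genes had an intron median of 0.12, with 62 of 78 positive. Nuclear genes of respiratory chain subunits had one of 0.17, with 65 of 79 positive. The members' intron median was 0.08, with 48 members positive, without KO replicate 4, and 0.09, with 46 positive, without WT replicate 3, beside 0.04 and 0.03 over all genes. Introns made up a median of 12.3% of a member's exon plus intron counts, between 0.168% and 46.2%.

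The introns of Mrpl24 had 168, 192 and 186 CPM of intron counts in KO, against 120, 119 and 136 in WT, with no overlap and a log2 change of 0.54 at an edgeR adjusted p of 0.114. Reads of Rrnad1 could be among them. The introns of Mrps21 had 62.9, 45.5 and 60.5 CPM in KO, against 41.6, 30.9 and 40.1 in WT, a log2 change of 0.59 at an edgeR adjusted p of 0.310. The introns of Mrps27 had 55.7, 50.7 and 49.9 CPM in KO, against 51.2, 43.5 and 44.5 in WT. They overlapped between the groups, with a log2 change of 0.17, an SE of 0.14 and an edgeR adjusted p of 0.787.

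The exonic change minus the intronic change was tested in 1 fit, where 0 of 71 members and 0% of 11100 genes passed with edgeR in either direction. DESeq2 called 0 members, and 0.306% of genes higher and 0.0721% lower. Among members with a p under 0.05 before adjustment, Mrps27 was the member whose exonic change was above its intronic change, beside 1.67% of all genes, and Mrpl15 the member below, beside 1.5%. The difference for Mrps27 was 0.53 on the log2 scale with an SE of 0.16, an unadjusted p of 0.0122 and an edgeR adjusted p of 1. For Mrpl15, a large subunit protein with a bacterial counterpart, it was -0.59 with an SE of 0.17. The members' median difference was -0.11, beside -0.06 over all genes, and 51 of 71 were negative, beside 60.2% of all genes. Cytosolic ribosomal protein genes had a median difference of -0.15, and nuclear genes of respiratory chain subunits one of -0.09. The members' median was 0.0059 without WT replicate 3.

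**Figure D5:**
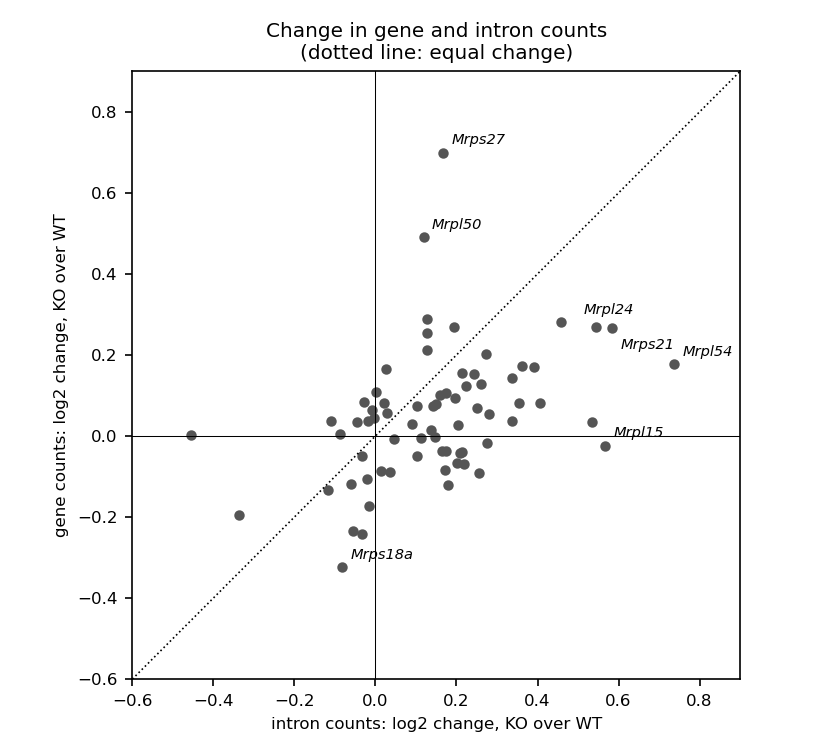
Log2 change of intron counts, KO over WT (x axis), against log2 change of gene counts (y axis) for members tested in both, with a dotted line of equal change. Mrps27 lies at 0.17 on the intron axis and 0.70 on the gene axis, and Mrpl15 lies on the other side of the line.

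The seed matches shown above were read against these changes. The member with a miR-451a match was Mrps27, the member that rose. The 9 members with a miR-144-3p match had a median log2 change of 0.04, beside 0.04 for the 66 tested members without one. Of these, 8 of 9 with a match and 39 of 66 without one were positive. Mrpl50 and Mrpl45 were among the 9 with a match. So was Mrpl17, whose match ends in an A as that of Mrpl50 does and whose log2 change was -0.18. Mrps26, with 2 matches, had 36.0, 32.5 and 29.6 CPM in KO, against 26.8, 25.2 and 30.4 CPM in WT, and these overlapped. The other 5 (Mrpl13, Mrpl19, Mrpl48, Mrps17 and Mrps5) had log2 changes of 0.02 to 0.11. Mrpl48, which also has 2 matches, was at 0.02. A lone member with a miR-451a match gives no comparison over members.

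Promoters were searched because the members moved together between libraries. Cytosolic ribosomal protein genes and respiratory chain genes were lowest in WT replicate 2 as well, and their promoters were not compared. Whether the words below bear on that shift was not tested. RefSeq promoters on GRCm38.p6, from 250 bases before to 50 bases after the start, were found for 67 of 76 members. The words, searched on both strands, were GCGCA and GCGC with any base between them for NRF1, a factor known to drive nuclear genes of the mitochondrial machinery, CCGGAAGT for ETS factors such as GABPA, and AAGATGGCG for YY1. The NRF1 word was in 12 members' promoters, 17.9% against 4.78% of 27025 promoters. The ETS word was in 11, 16.4% against 4%, and the YY1 word in 8, 11.9% against 1.49%. Median GC content was 58.0% in the members' promoters and 52.7% in all, and the motif shares were not adjusted for it. The 27025 promoters were not limited to genes tested here or to genes that encode proteins. The promoters of Mrps27, the member that rose, and of Mrpl45, with 3 NRF1 words, are printed with these words in capitals. The ETS word in Mrps27 and the last NRF1 word in Mrpl45 are on the opposite strand.
Mrps27 promoter, chr13:99344536-99344835, plus strand: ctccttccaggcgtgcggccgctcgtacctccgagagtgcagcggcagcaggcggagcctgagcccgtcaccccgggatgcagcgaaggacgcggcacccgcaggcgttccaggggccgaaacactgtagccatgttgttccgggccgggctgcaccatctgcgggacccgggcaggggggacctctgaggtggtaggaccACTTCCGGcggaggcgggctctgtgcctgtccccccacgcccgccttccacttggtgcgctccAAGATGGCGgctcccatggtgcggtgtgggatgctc
Mrpl45 promoter, chr11:97315466-97315765, plus strand: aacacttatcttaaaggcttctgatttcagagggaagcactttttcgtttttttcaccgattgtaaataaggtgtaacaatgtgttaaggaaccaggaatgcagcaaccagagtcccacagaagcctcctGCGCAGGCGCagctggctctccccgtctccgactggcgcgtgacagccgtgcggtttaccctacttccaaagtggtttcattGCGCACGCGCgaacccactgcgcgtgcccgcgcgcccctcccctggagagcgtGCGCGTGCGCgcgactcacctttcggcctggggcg
These letters were not tested as binding sites.

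Other genes of mitochondrial translation were read from the same fit. Over all tested genes, 1.83% were higher and 1.45% lower with edgeR, and 4.34% and 4.32% with DESeq2. At an unadjusted p under 0.05 these shares were 7.77% and 8.78%. Of 13 translation factors, 0 passed in either direction with edgeR or DESeq2, 1 was higher at an unadjusted p under 0.05, and the median log2 change was 0.06. Gfm1, an elongation factor, averaged 96.4 ± 8.33 CPM in KO and 80.5 ± 9.93 in WT, and Tufm, another, 80.7 ± 8.13 CPM in KO and 77.6 ± 5.07 in WT (SD, n = 3 each). Of 7 mitochondrial ribosomal proteins with other symbols, 0 passed by either tool or at an unadjusted p under 0.05, with a median of 0.12. Among these, Dap3, a small subunit protein that binds GTP, averaged 95.8 ± 4.23 CPM in KO and 85.9 ± 8.33 in WT, and Ptcd3, a pentatricopeptide repeat protein of the small subunit, 106 ± 6.21 CPM in KO and 102 ± 11.7 in WT. Of 20 genes that charge mitochondrial tRNAs, 0 passed with edgeR, 2 were higher at an unadjusted p under 0.05 and DESeq2 called 1 higher (Fars2), with a median of 0.13. Iars2 averaged 149.8 ± 8.01 CPM in KO and 129 ± 14.8 in WT, and Lars2 138 ± 35.3 CPM in KO and 124 ± 18.1 in WT.

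Of 28 genes of mitochondrial ribosome assembly and rRNA modification, 1 rose (Eral1) and 0 fell with edgeR, with a median of 0.05. At an unadjusted p under 0.05, 5 of these genes were higher and 0 lower, and DESeq2 called 2 higher and 0 lower. Over all tested genes, 1.83% rose and 1.45% fell, and 7.77% and 8.78% did so at an unadjusted p under 0.05. DESeq2 called 4.34% higher and 4.32% lower. Eral1, a GTPase that binds the small subunit rRNA during assembly, had 32.8, 32.3 and 27.7 CPM in KO, against 19.6, 15.9 and 19.6 CPM in WT, a log2 change of 0.75 with an edgeR adjusted p of 0.0347. It is annotated at chr11:78073376-78080383 on the minus strand (GRCm38), 134 bases from Mir451a, so it neighbours the deleted locus. Of 21 genes of mitochondrial transcription and RNA handling, 1 rose (Tfb2m) and 0 fell with edgeR, with a median of 0.05. An unadjusted p under 0.05 was found for 4 higher genes and 1 lower gene, and DESeq2 called 1 higher and 0 lower. Tfb2m, a transcription factor of the mitochondrial RNA polymerase, had 30.2, 28.7 and 26.2 CPM in KO, against 17.0, 14 and 18.4 CPM in WT, a log2 change of 0.78 with an edgeR adjusted p of 0.0328. Neither gene had overlapping groups. The calls of Eral1 and Tfb2m were lost in 5 of 6 fits that left out a library, and were kept without WT replicate 2. In those 5 fits the edgeR adjusted p was 0.0528 to 0.137 for Eral1 and 0.0637 to 0.143 for Tfb2m. Over all genes, 5 to 54 were called higher in the same 5 fits, against 276 with all 6 libraries. Of 9 nuclear regulators of mitochondrial genes, 0 passed with edgeR or DESeq2, an unadjusted p under 0.05 was found for Gabpa (higher) and 2 lower genes, and the median was -0.12. Nrf1 had 89.2, 88.0 and 82.0 CPM in KO, against 116, 90.8 and 115 CPM in WT, a log2 change of -0.31 with an edgeR adjusted p of 0.225.

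Set beside the closest gene families, 1 of 75 tested members was higher in KO with edgeR. Of all tested genes, 1.83% were higher and 1.45% lower with edgeR, and 4.34% and 4.32% with DESeq2. At an unadjusted p under 0.05 the shares were 7.77% and 8.78%, and the groups did not overlap for 11.8% and 10.9%. Of 82 cytosolic ribosomal protein genes 80 were tested, and 0 passed in either direction with edgeR or DESeq2, an unadjusted p under 0.05 for 1 higher and 0 lower genes and a median log2 change of -0.03. Of 86 nuclear genes of respiratory chain subunits 82 were tested, and 4 were higher and 0 lower with edgeR, while DESeq2 called 8 higher and 0 lower. An unadjusted p under 0.05 was found for 15 higher and 2 lower genes of this family, the groups did not overlap for 24 higher and 3 lower genes, and the median was 0.04. The differences between these families were not tested.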

How the data were processed

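The deposited tables hold raw counts per gene and exon and intron counts per gene. Per the submitters' processing notes, the aligner STAR and the counter HTSeq were used, with the builds NCBIM37 and mm10 listed. Not given in the sources used here are the build behind each table, gene models, strand setting and intron definition. Per the file name, the authors had removed globin and mitochondrial genes. Groups and numbers came from the sample titles.

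Counts were tested KO against WT over all genes with edgeR 4.0.16 in R 4.3.3 (quasi-likelihood F test, TMM scaling, filterByExpr with minimum count 10 and minimum total 15, two-sided, Benjamini-Hochberg adjustment, threshold 0.05), and intron counts likewise. The exon against intron test was the interaction of region with genotype in 1 fit with a term per library. DESeq2 1.42.0 and limma-voom (limma 3.58.1) were alternatives, beside other scaling, filters, a hepatocyte covariate and left-out libraries. The scripts were tested on simulated data. Reads carry no molecular identifiers, so repeated reads of the same molecule could not be told apart. The SEs come from the edgeR fits and take in the spread between libraries. Symbols were matched to GENCODE models on GRCm38, and all 76 matched.

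The members and lists were chosen with earlier results of these data known. Named members are those called, the 6 largest changes each way, the 4 highest and lowest per kilobase, those not tested, and Mrps18 or overlapping members; other lists give called genes or the 2 most expressed. Members outside this rule were named after their values were seen.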

Additional observations from a re-analysis of the deposited data

How the results depend on the processing

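No paired analysis was possible because the KO libraries are numbered 4 to 6 and the WT libraries 1 to 3, with none shared. In gene counts, 1 member was called higher and 0 lower. The number called higher was 2 with library totals as the scaling (Mrpl45 and Mrps27) and 3 with DESeq2. It was 10 with the hepatocyte covariate and 2 without both libraries of highest hepatocyte level, and the number called lower was 2 with that covariate. Over all genes, 276 were called higher in the main fit, 551 with library totals and 655 with DESeq2. With the covariate 1272 were called higher and 1283 lower, and without both those libraries 580 were called higher. Leaving out 1 library at a time gave 0 to 2 higher and 0 to 2 lower. The 2 lower, without WT replicate 2, were Mrpl51 and Mrps18c, in a fit that called 483 of 15308 genes higher and 1012 lower. The other fits with 1 library left out called 5 to 54 genes higher and 7 to 44 lower. Such fits have fewer samples, and for the other changes the cause was not tested. In intron counts DESeq2 called 1 member higher, against 0. The median exonic minus intronic change was -0.11 and ran from -0.15 to 0.0059 with 1 library left out. Library totals moved the median of all genes to 0.06, against -0.03, and that of the members to 0.13. With the other filters, relative log expression scaling, limma-voom and the exon columns, 1 member was called higher and 0 lower each time. With 1 library left out the members' median log2 change ran from -0.0099 to 0.08 in gene counts, against 0.04, and from 0.08 to 0.20 in intron counts, against 0.15. That gene-count median was negative without WT replicate 2, and the exonic minus intronic median was positive without WT replicate 3. Of the 19 genes whose log2 change was followed through the alternatives, 0 changed sign. They were picked for their changes in these same libraries, so this count is no test of stability. Depth per tested member was 176 to 5273 gene counts in a library.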
